A study of Mus musculus with 6 samples.

Results

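The Ifitm genes encode interferon-induced transmembrane proteins. All genes of the count tables whose Ensembl identifier matched the symbols Ifitm1, Ifitm2, Ifitm3, Ifitm6, Ifitm7 and Ifitm10 were taken, which gave 6 members of the 54752 genes counted. The values that follow describe these 6 genes in the right hippocampus of mice with bilateral carotid artery stenosis (BCAS) or a sham operation. Each of the 6 libraries came from the whole right hippocampus of 1 wild-type male C57BL/6 mouse (C57BL/6 J in the paper), with 3 mice per group. The labels give a time of 14 weeks for all mice and do not say whether it is their age. BCAS mice carried a narrower microcoil around the right common carotid artery and a wider one around the left, whereas sham mice had surgery without microcoils. The tissue was taken 3 weeks after surgery. The comparison asks how reduced blood flow altered the RNA of each member, and whether the mice of a group agreed.

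IFITM proteins are small membrane proteins that share the CD225 domain. They are induced by interferons and hinder the fusion of enveloped viruses with cell membranes. IFITM3 acts mainly in endosomes and lysosomes and IFITM1 mainly at the cell surface. In the brain, the family is best known in vascular cells, microglia and reactive astrocytes, and IFITM3 can also bind gamma-secretase, the enzyme complex that releases amyloid-beta.

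The libraries held 29652456 to 35607098 counts, and all 6 members passed the filter on low counts, among 18617 genes that did. Ifitm6 passed through the BCAS libraries alone. CPM values are counts scaled to a common library total with TMM normalization, and 3 counts, the most that a count of 0 allows, equal 0.0875 to 0.0995 CPM, a limit that covers counting error only. Both mates of a pair could be counted, so that counts are not independent molecules and the limit may be higher. Markers of the hippocampus were present in every library. Summed over 8 genes they stood at 917, 866 and 836 CPM in the sham group, against 774, 543 and 565 CPM in the BCAS group, and 4 of the 8 passed adjusted p under 0.05 with lower values, among them Fibcd1 (log2 fold change -1.91) and Dsp (-1.31), as did 13.2% of all tested genes. Choroid plexus markers, which belong to a neighbouring tissue, ranged from 40.4 to 5924 summed CPM without following the groups. BCAS mouse 3 held the highest level of 83.2% of all up-regulated genes.

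Ifitm1, Ifitm2, Ifitm3 and Ifitm6 were up-regulated in BCAS mice, whereas Ifitm7 and Ifitm10 did not pass the test. Ifitm3 had the highest level per kilobase of exon in both groups, and its mean CPM was 5.89 times as high in BCAS mice. The 4 up-regulated members are neighbours on chromosome 7 in mm10. Differentially expressed genes (DEGs) needed an adjusted p under 0.05 in edgeR's quasi-likelihood test and an absolute log2 fold change above 1. By this rule 4 of the 6 members were DEGs that rose and 0 fell, compared with 8.47% of all tested genes that rose and 0.999% that fell, or 9.46% in either direction. The count fell to 2 without sham mouse 1, sham mouse 3 or BCAS mouse 3, and to 1 under glmTreat, which tests against the fold threshold itself. The median log2 fold change was 1.38 over the 6 members and 0.02 over all tested genes. Without Ifitm6, which had to differ to pass the filter, 3 of 5 members were DEGs that rose and the median was 1.25. These counts and medians describe the members and are no test of them. Every BCAS mouse lay above every sham mouse in 4 of the 6 members, or 3 of 5 without Ifitm6, and in 25.3% of all tested genes. With RLE normalization this held for 3 of the 6 members, since Ifitm1 was then 2.31 CPM in the lowest BCAS mouse and 2.34 CPM in the highest sham mouse.

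**Figure D1:**
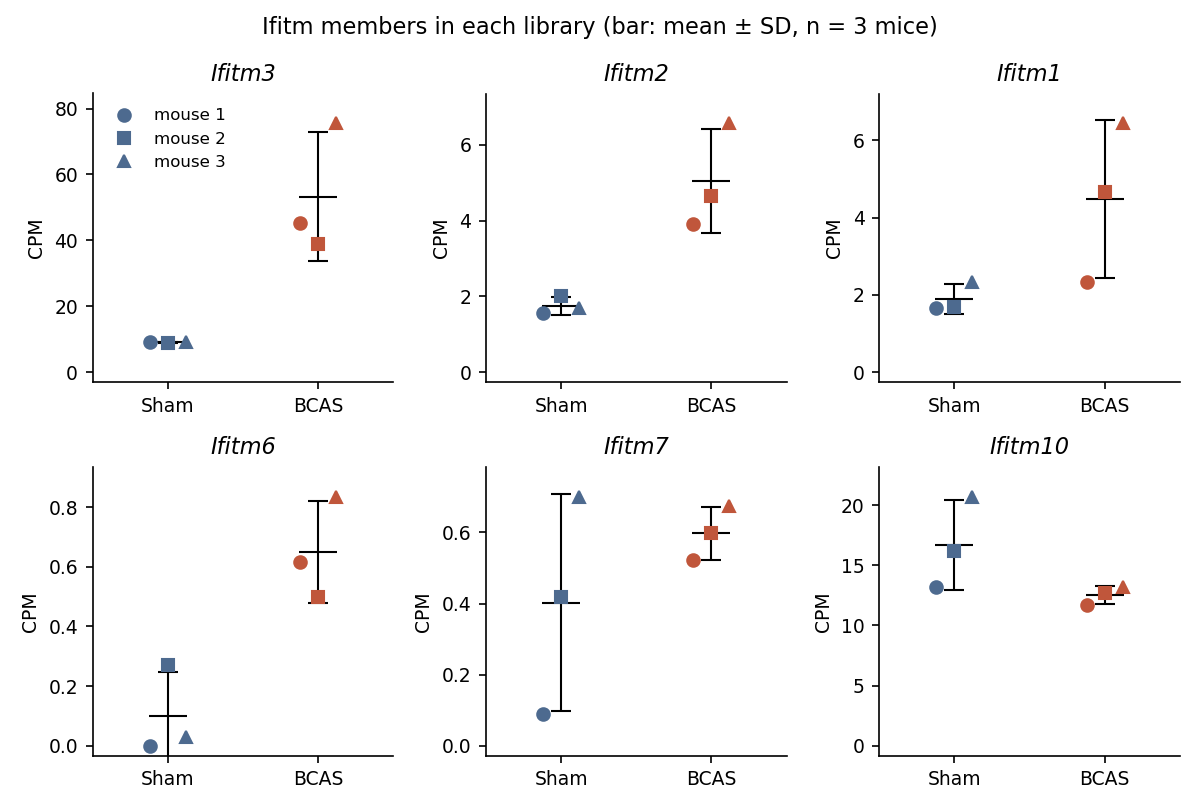
CPM of the 6 Ifitm members (vertical axes, a separate linear scale for each gene) in sham mice (blue) and BCAS mice (red). Symbols mark the mouse number and the bars give the mean ± SD of 3 mice. The groups are apart for Ifitm3, Ifitm2, Ifitm6 and, narrowly, Ifitm1, and they overlap for Ifitm7 and Ifitm10.

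Ifitm3, whose protein restricts the entry of viruses from endosomes, lies at chr7:141009586-141010770 on the minus strand of mm10, with 678 exonic bases. It counted 313, 297 and 310 reads in sham mice 1 to 3, or 9.24, 8.89 and 9.04 CPM. In BCAS mice 1 to 3 it had 1475, 1175 and 2356 counts, or 45.4, 39.0 and 75.5 CPM. The sham mice were almost equal, and the lowest BCAS mouse lay far above all of them. The mean rose from 9.05 CPM (SD 0.175, n = 3) to 53.3 CPM (SD 19.5, n = 3). The log2 fold change was 2.56 (SE 0.23, edgeR adjusted p = 9.6e-05). It ranged from 2.21 to 2.73 when 1 mouse was left out, and Ifitm3 remained a DEG in each of these 6 fits.

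The stretch of Ifitm3 shown here is given because it holds 2 matches to the core letters of the interferon-stimulated response element, a promoter motif of many interferon-induced genes. This motif was searched as GAAA, then 2 bases of any kind, then GAAA again. It covers chr7:141010716-141010745 on the minus strand, in RefSeq sequence of GRCm38.p6, and the capitals mark the matches.
Ifitm3: cagGAAAAGGAAActtctgaGAAACCGAAA
Counted from the RefSeq start of Ifitm3, the matches lie at 3 to 12 and at 20 to 29. GENCODE places the start further upstream, at position 141010770, so that both matches fall inside its first exon. A match to TTCNNNGAA, the letters of the gamma-activated site, lies at 14 to 22 and overlaps the second match of the response element. On either strand, the paired GAAA motif occurs in 3.44% and TTCNNNGAA in 8.3% of 32851 RefSeq windows that run from 250 bases before to 50 bases after a start. All 6 members had a window, and only those of Ifitm2, Ifitm3 and Ifitm6 held a match to either motif. The windows of Ifitm1 and Ifitm6, and some of those of Ifitm10, lie inside the gene as GENCODE annotates it. Such a match describes letters and was not tested as a binding site.

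Ifitm2, a close relative of Ifitm3 that is also found in endosomes, lies at chr7:140954837-140955987 on the minus strand, with 655 exonic bases. It had counts of 53, 67 and 58 in the sham group, against 127, 140 and 205 in the BCAS group. These equal 1.56, 2.01 and 1.69 CPM and 3.91, 4.64 and 6.57 CPM, so the lowest BCAS mouse was well above the highest sham mouse. Mean levels were 1.75 CPM (SD 0.227, n = 3) and 5.04 CPM (SD 1.38, n = 3). The log2 fold change was 1.52 (SE 0.25, edgeR adjusted p = 0.00232), and Ifitm2 remained a DEG whichever mouse was left out. Of its exonic bases 268, or 40.9%, are shared with Gm45717, a gene with 0 counts in all 6 libraries, and reads on bases of both genes were counted for neither. Its level is therefore counted over part of its length, and its level per length is too low. The match in the Ifitm2 promoter lies at -46 to -37 and has the same letters as the first match of Ifitm3. The 150 bases before the RefSeq start, chr7:140955962-140956111 on the minus strand, are shown with the match in capitals.
Ifitm2: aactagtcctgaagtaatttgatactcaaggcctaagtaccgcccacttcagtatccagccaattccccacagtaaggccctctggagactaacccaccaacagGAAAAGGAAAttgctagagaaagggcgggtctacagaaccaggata

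Ifitm1, whose protein is found largely at the cell surface, lies at chr7:140967221-140969825 on the plus strand, with 1094 exonic bases. It had 56, 56 and 80 counts in sham mice, or 1.65, 1.68 and 2.33 CPM. In BCAS mice it had 76, 141 and 201 counts, or 2.34, 4.67 and 6.44 CPM. BCAS mouse 1 barely exceeded sham mouse 3, whereas BCAS mice 2 and 3 lay clearly above all sham mice. Mean levels were 1.89 CPM (SD 0.386, n = 3) and 4.49 CPM (SD 2.06, n = 3). The log2 fold change was 1.25 (SE 0.36, edgeR adjusted p = 0.0281). Ifitm1 was no longer a DEG without sham mouse 1 (log2 fold change 1.16, adjusted p = 0.101), sham mouse 2 (1.16, adjusted p = 0.0865), sham mouse 3 (1.42, adjusted p = 0.0543) or BCAS mouse 3 (0.89, adjusted p = 0.0999).

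Ifitm6, which is known from macrophages and other myeloid cells, lies at chr7:141015699-141017924 on the minus strand, with 905 exonic bases. It had counts of 0, 9 and 1 in the sham group, against 20, 15 and 26 in the BCAS group. These equal 0, 0.269 and 0.0292 CPM and 0.616, 0.497 and 0.834 CPM. Sham mice 1 and 3 were under the limit of 3 counts, sham mouse 2 was above it, and every BCAS mouse was above every sham mouse. The log2 fold change of 2.67 (SE 0.845, edgeR adjusted p = 0.0408) rested on these few counts. The call was lost with counts thinned to the smallest library (2.36, adjusted p = 0.0632) and with the replicate number as a block (2.94, adjusted p = 0.0757). Ifitm6 was no longer a DEG without sham mouse 1 (2.10, adjusted p = 0.0993), sham mouse 3 (2.24, adjusted p = 0.139), BCAS mouse 1 (2.70, adjusted p = 0.0791) or BCAS mouse 3 (2.44, adjusted p = 0.121). Without sham mouse 2 the fitted log2 fold change was 5.14, with an adjusted p of 0.0074. GENCODE places the start of Ifitm6 further upstream, at position 141017924, so its RefSeq window lies inside the annotated gene. The window of Ifitm6 held a TTCNNNGAA match at -10 to -2, in capitals in the 150 bases before its RefSeq start, chr7:141016893-141017042 on the minus strand.
Ifitm6: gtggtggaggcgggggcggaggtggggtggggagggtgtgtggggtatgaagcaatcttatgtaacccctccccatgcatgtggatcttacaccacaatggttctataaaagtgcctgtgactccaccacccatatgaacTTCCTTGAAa

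Ifitm7 stands alone on another chromosome, at chr16:13981699-13986888 on the minus strand. It had counts of 3, 14 and 24 in the sham group, against 17, 18 and 21 in the BCAS group, or 0.0885, 0.419 and 0.700 CPM and 0.523, 0.597 and 0.673 CPM. The 3 BCAS mice lay within the wide range of the sham mice. The log2 fold change was 0.56 (SE 0.60, edgeR adjusted p = 0.516), which is smaller than its error. It was 0.09 (adjusted p = 0.905) without sham mouse 1 and 1.22 (adjusted p = 0.234) without sham mouse 3. Of its 2376 exonic bases, 259 are shared with 2900011O08Rik on the opposite strand, and since strand was ignored, reads there were counted for neither gene.

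Ifitm10 lies on chromosome 7 but apart from the cluster, at chr7:142325837-142373753 on the minus strand, with 4789 exonic bases. Of these bases 215, or 4.49%, are shared with Gm49369 on the same strand, and reads there were counted for neither gene. Ifitm10 had counts of 446, 542 and 709 in the sham group, against 379, 384 and 413 in the BCAS group. These equal 13.2, 16.2 and 20.7 CPM and 11.7, 12.7 and 13.2 CPM, so BCAS mice 1 and 2 were below all sham mice, and BCAS mouse 3 lay just above sham mouse 1. Mean levels were 16.7 CPM (SD 3.78, n = 3) and 12.5 CPM (SD 0.804, n = 3). The log2 fold change was -0.41 (SE 0.17, edgeR adjusted p = 0.0904) and was negative in all 6 fits with a mouse left out, from -0.56 to -0.23. Without sham mouse 1 the adjusted p was 0.0378, at a log2 fold change of -0.56, which is within the fold threshold.

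Agreement between mice differed from member to member. In log2 CPM relative to the sham mean, the BCAS mice reached 2.32, 2.10 and 3.05 for Ifitm3 and 1.14, 1.38 and 1.88 for Ifitm2. For Ifitm1 they reached 0.32, 1.30 and 1.76, the widest spread among BCAS mice for any member, with an SD of 0.735. Ifitm10 varied least among BCAS mice, with an SD of 0.09 on the log2 scale, and Ifitm3 varied least among sham mice, with an SD of 0.03. The sham mice differed most for the sparsely counted Ifitm6 and Ifitm7, with SDs of 1.27 and 1.21. BCAS mouse 3 was the highest BCAS mouse for all 6 members, Ifitm10 included, and for 83.2% of all up-regulated genes. The order of the others was not shared: BCAS mouse 1 was lowest for Ifitm1, Ifitm2, Ifitm7 and Ifitm10, and BCAS mouse 2 was lowest for Ifitm3 and Ifitm6.

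**Figure D2:**
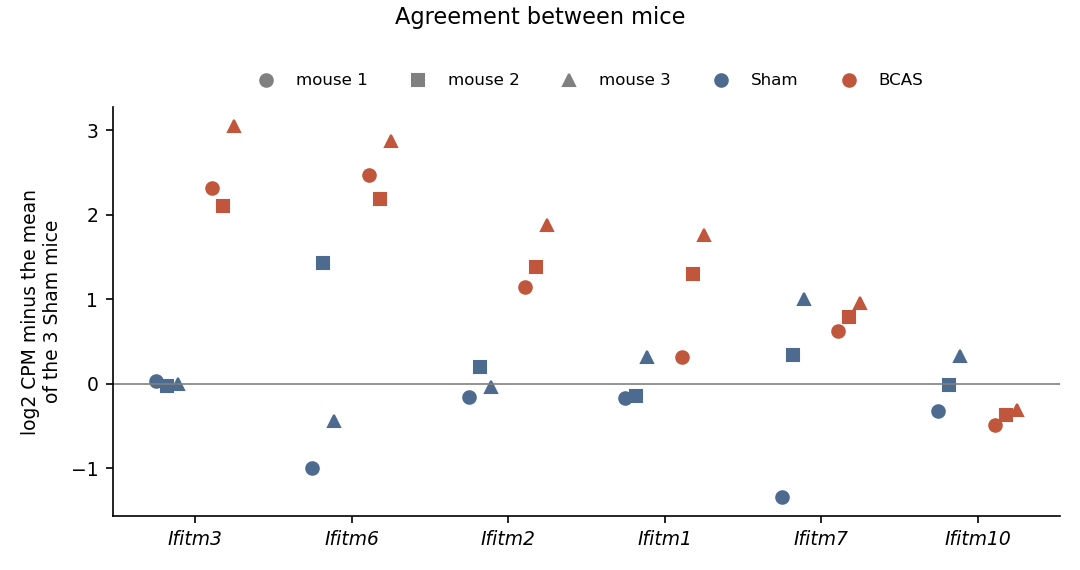
Log2 CPM of each mouse minus the mean of the 3 sham mice (vertical axis, log2 scale) for the 6 members (horizontal axis). The BCAS mice (red) reach 2.10 to 3.05 for Ifitm3 around tightly grouped sham mice (blue), whereas for Ifitm1 BCAS mouse 1 is level with sham mouse 3.

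Levels of different members were compared as CPM per kilobase of exon. In sham mice Ifitm3 came first with 13.4 CPM per kilobase (range 13.1 to 13.6), followed by Ifitm10 with 3.48, Ifitm2 with 2.68 and Ifitm1 with 1.72. Ifitm7 and Ifitm6 came last, with 0.169 and 0.11. The ranges of Ifitm10 and Ifitm2 overlapped, as did those of Ifitm7 and Ifitm6, so these neighbours in the order were not separated. With the bases shared with Gm45717 left out of its length, a choice made after seeing the data, the mean of Ifitm2 was 4.53 and above that of Ifitm10, and in BCAS mice it was 13. In BCAS mice Ifitm3 came first with 78.6 CPM per kilobase (range 57.5 to 111), followed by Ifitm2 with 7.70, Ifitm1 with 4.10 and Ifitm10 with 2.62. Ifitm6 with 0.717 then stood above Ifitm7 with 0.252, and only the ranges of Ifitm1 and Ifitm10 overlapped. Ifitm3 made up between 58.8% and 67.1% of the summed level of the family in sham libraries, compared with 79.5% to 85.4% in BCAS libraries. These shares use the full length of Ifitm2, and with its shorter length they would be lower in every library.

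Whether the members rose unequally was examined with the log2 ratio of one member to another within each library, which does not depend on library scaling. The ratio of Ifitm2 to Ifitm3 was -2.52, -2.11 and -2.38 in the sham group, against -3.52, -3.05 and -3.51 in the BCAS group, so that the groups did not overlap and the difference was -1.02. The ratio of Ifitm1 to Ifitm3 differed by -1.36, from -2.24 (SD 0.28, n = 3) to -3.61 (SD 0.60, n = 3), also without overlap. The ratio of Ifitm1 to Ifitm2 overlapped between the groups, with a difference of -0.34 (exact two-sided permutation p = 0.4). That of Ifitm3 to Ifitm10 rose by 2.88, from a sham range of -1.19 to -0.51 to a BCAS range of 1.61 to 2.51. Pairs whose groups did not overlap had an exact two-sided permutation p of 0.1, the smallest that 3 mice against 3 allow. After Benjamini-Hochberg adjustment over the 15 pairs compared these exact values were 0.188, so no pair could pass a threshold of 0.05 in this design.

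The plot of fold changes under each setting shows how far these values moved with the processing and with single mice.

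**Figure D3:**
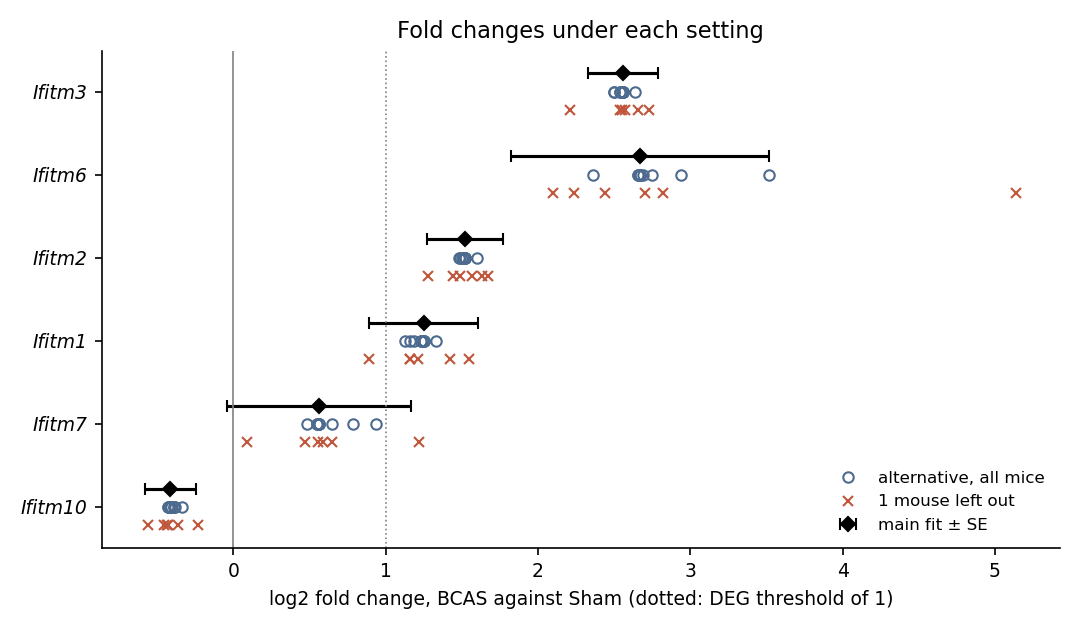
Log2 fold change of each member in BCAS against sham mice (horizontal axis). Black diamonds give the edgeR fit with its SE, circles the 10 alternatives with all mice and crosses the 6 fits with 1 mouse left out. The circle without the fold threshold repeats the edgeR fit. Ifitm3 stays between 2.21 and 2.73, while Ifitm6 spreads from 2.10 to 5.14.

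The rise of the clustered members was compared with that of the genes around them. Within 100000 bases of Ifitm1, Ifitm2, Ifitm3 or Ifitm6, 11 other genes passed the filter, of which 1 was a DEG that rose and 0 were DEGs that fell, a share near the 8.47% of all tested genes that rose. Pkp3, a plakophilin of desmosomes, had counts of 2, 3 and 6 in the sham group, against 16, 19 and 23 in the BCAS group, with a log2 fold change of 2.48 (SE 0.53, edgeR adjusted p = 0.00809). Like Ifitm6 it passed the filter through the BCAS libraries alone. Pgghg, a glucosidase acting on hydroxylysine of collagen, is the gene next to the cluster on the Ifitm2 side that passed the filter. It rose by less, with a log2 fold change of 0.70 (adjusted p = 0.00547). B4galnt4 and the gene model Gm15542 passed with log2 fold changes of -0.33 and -0.53. The median over the 11 genes was -0.18.

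Within 100000 bases of Ifitm10, 3 other genes passed the filter. All 3 were DEGs that rose, compared with 8.47% of all tested genes. Of the 3, Tnni2 passed the filter through the BCAS libraries alone. Ctsd, the lysosomal protease cathepsin D, starts 14285 bases from the start of Ifitm10 and had a log2 fold change of 3.39 (SE 0.22, edgeR adjusted p = 2.1e-05). Its counts were 4950, 6380 and 5390 in the sham group, against 44806, 45500 and 71797 in the BCAS group, with no overlap. Tnni2, a fast skeletal muscle troponin I, and Lsp1, a leukocyte actin-binding protein, had log2 fold changes of 4.29 and 2.50. Around Ifitm7, 4 genes passed the filter and 0 were DEGs, compared with 9.46% of all tested genes in either direction.

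**Figure D4:**
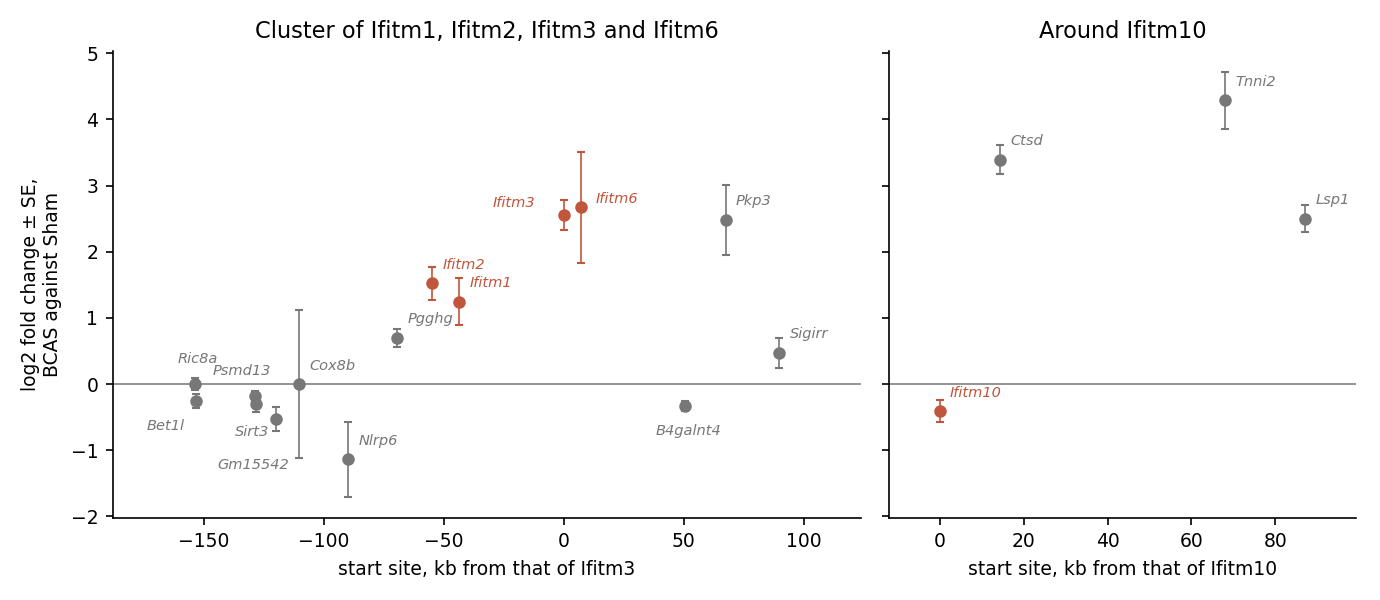
Log2 fold change ± SE in BCAS against sham mice (vertical axis) of tested genes by the distance of their annotated start from that of Ifitm3 (left) or Ifitm10 (right), in kilobases. Ifitm members are red and other genes grey. On the left the 4 Ifitm genes and Pkp3 lie above 1 and the other genes at 0.70 or below, and on the right Ifitm10 lies below 0 beside Ctsd, Tnni2 and Lsp1.

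Components of interferon sensing and signalling, listed for their known roles, were mostly higher in BCAS mice. Of 11 such genes 5 were DEGs that rose, compared with 8.47% of all tested genes. With higher values, 9 passed adjusted p under 0.05, compared with 18% of all tested genes. Irf9, a DNA-binding factor of type I interferon signalling, counted 323, 318 and 343 reads in the sham group, against 1056, 920 and 1414 in the BCAS group. The groups were well apart, with a log2 fold change of 1.90 (SE 0.16, edgeR adjusted p = 5.99e-05). The type I receptor chain Ifnar2 rose by 1.21, the type II receptor chain Ifngr1 by 1.66 and the transcription factor Irf1 by 1.34 on the log2 scale. Ifnar1, Jak2, Tyk2 and Stat2 passed with smaller log2 fold changes of 0.29 to 0.93. Ifngr2 and Jak1 did not pass, with values of -0.08 and -0.13.

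Among 15 other interferon-induced antiviral genes, 14 were DEGs that rose, compared with 8.47% of all tested genes, and the median log2 fold change was 3.08, compared with 1.38 for the Ifitm members. Mx1, a GTPase that traps viral nucleocapsids, had the highest value, 5.42 (SE 0.58). Bst2, which tethers budding virus to the cell surface, had 3.16, 4.73 and 3.79 CPM in the sham group, against 34.9, 32.5 and 59.8 CPM in the BCAS group. The groups did not overlap, and the log2 fold change was 3.44 (SE 0.26, edgeR adjusted p = 4.31e-05). Samhd1, which depletes nucleotides, rose by 1.10, about as much as Ifitm1.

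**Figure D5:**
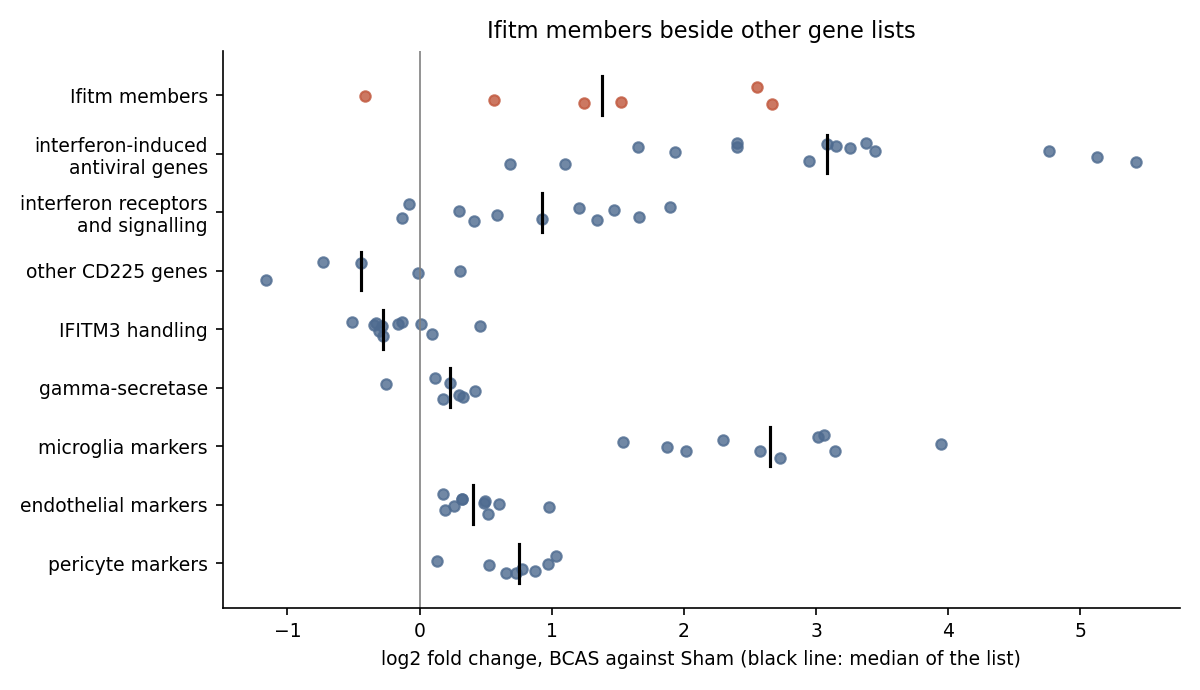
Log2 fold change in BCAS against sham mice (horizontal axis) of every tested gene in 9 lists, with the median of each list as a black line. The Ifitm members (red) run from -0.41 to 2.67 around a median of 1.38, between the antiviral genes with a median of 3.08 and the interferon receptors and signalling genes with a median of 0.93.

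Of 8 other genes with a CD225 domain 5 passed the filter, 0 were DEGs that rose and 1 was a DEG that fell, beside 8.47% and 0.999% of all tested genes. Syndig1, a regulator of excitatory synapse development, had 33.9, 34.7 and 37.0 CPM in the sham group, against 17.8, 15.9 and 13.4 CPM in the BCAS group. The groups did not overlap, with a log2 fold change of -1.16 (SE 0.12, edgeR adjusted p = 0.000179). Prrt1, which associates with AMPA receptors, passed the test with a log2 fold change of -0.73. Ifitm5, the bone-restricted member of the cluster, had 0 counts in all 6 libraries. Prrt2 had 3 to 9 counts per library, but 92.4% of its exonic bases overlap Gm42742, so its low count cannot be read as a low level.

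Genes that act on IFITM3 protein showed small differences at the RNA level. Of 11 such genes 0 were DEGs, compared with 9.46% of all tested genes in either direction, and 0 in so short a list does not stand out from that share. By adjusted p under 0.05, 1 passed with higher and 5 with lower values, compared with 18% and 13.2% of all tested genes. Zmpste24, a membrane protease that works with IFITM proteins, rose by 0.46 on the log2 scale (adjusted p = 0.00823). Zdhhc20, which palmitoylates IFITM3, and Nedd4, the ubiquitin ligase that marks it for degradation, did not pass, with log2 fold changes of 0.10 and 0.01. Of the 5 AP-2 subunits listed, which carry IFITM3 from the cell surface into endosomes, Ap2a1, Ap2b1, Ap2m1 and Ap2s1 passed with log2 fold changes of -0.51 to -0.29, and 13.2% of all tested genes passed with lower values. Ap2a2 did not pass, at -0.35.

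Of 7 subunits of gamma-secretase 0 were DEGs, compared with 9.46% of all tested genes in either direction, and 0 in so short a list does not stand out from that share. Nicastrin (Ncstn) and Aph1a passed with log2 fold changes of 0.42 and 0.33, and 18% of all tested genes passed with higher values. Among tetraspanins that associate with IFITM1, Cd9 was a DEG with 43.9, 47.8 and 40.5 CPM in the sham group, against 219, 192 and 301 CPM in the BCAS group. Its groups lay far apart, with a log2 fold change of 2.43, and Cd81 passed with 0.71.

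For each member, the 3 genes with the most similar profile were found by the root mean square distance of log2 CPM over the 6 libraries, each profile centred on its own sham mean, among genes with a mean of at least 1 CPM. Nearest to Ifitm3 were Tgfbr2, a receptor chain for TGF-beta, the myeloid surface lectin Cd33 and the sphingosine phosphate receptor S1pr3. Their distances were 0.07, 0.10 and 0.11, compared with a median of 1.79 over the 15630 genes compared. Nearest to Ifitm2 were Tifa, Thbs2 and Glipr1, at 0.06 to 0.07. Nearest to Ifitm1 were Pla1a, Nrap and Pik3r6, at 0.12 to 0.22, and those of Ifitm6 (Slc37a2, Ltc4s, Gm5637) were further away, at 0.34 to 0.41. Nearest to Ifitm10 were Slc32a1, the vesicular GABA transporter, with Gm20075 and Qpct, at 0.09 to 0.11. The genes nearest to Ifitm7 were Gm14648, Slc41a3 and BC028528, at 0.31 to 0.41. Between members, Ifitm1 and Ifitm2 were closest, at 0.40, while Ifitm3 was at 0.75 from Ifitm2 and 2.06 from Ifitm10. Genes that differ from their sham mean by similar amounts in each library are close by this measure whatever else they do.

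Markers of several cell types moved with the Ifitm members, and their part in these results was not tested. In bulk tissue, a change in the number of cells of a type and a change of RNA per cell cannot be told apart. The counts of DEGs that rose are to be read against 8.47% of all tested genes, and those that passed adjusted p with higher values against 18%. All 10 microglia markers were DEGs that rose, and their summed level was between 346 and 364 CPM in sham libraries, compared with 1961 to 3161 CPM in BCAS libraries. BCAS mouse 3 was again the highest. Of 6 astrocyte markers 2, Gfap and Aqp4, were DEGs that rose, and all 6 passed adjusted p under 0.05 with higher values. Their median log2 fold change was 0.74. The summed level was between 3554 and 3920 CPM in sham libraries, compared with 8372 to 8997 CPM in BCAS libraries. Much of this difference came from Gfap, with a mean of 375 CPM in sham mice and 3680 CPM in BCAS mice.

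The median log2 fold change was 2.65 over the microglia markers, 0.40 over endothelial markers and 0.75 over pericyte markers. Of 10 endothelial markers 0 were DEGs, 5 passed adjusted p under 0.05 with higher values, and the summed level was between 252 and 272 CPM in sham libraries, compared with 333 to 377 CPM in BCAS libraries. Of 8 pericyte markers 1, Abcc9, was a DEG that rose, 7 passed adjusted p under 0.05 with higher values, and the sum was 306 to 343 CPM and 432 to 483 CPM. Of 6 fibroblast markers 3, Col1a1, Col1a2 and Col3a1, were DEGs that rose, and 4 passed adjusted p under 0.05 with higher values. The sum over all 6 was 185, 143 and 232 CPM in the sham group, against 244, 398 and 407 CPM in the BCAS group.

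Blood cell markers were sparse. Of 12 monocyte and neutrophil markers 5 passed the filter, and Ccr2, Ly6c2 and Plac8 were DEGs that rose, of which Ly6c2 and Plac8 passed the filter through the BCAS libraries alone. The summed level of all 12 was between 1.35 and 3.62 CPM in sham libraries, compared with 6.59 to 14.0 CPM in BCAS libraries, and Ly6g, which defines mouse neutrophils, had 0 counts in all 6 libraries. The other neutrophil markers did not share a direction. S100a9 (log2 fold change 1.25, edgeR adjusted p = 0.202) and Chil3 (1.04, adjusted p = 0.428) passed the filter but not the test. The rest were too low for the filter. S100a8 counted 2, 4 and 9 reads in the sham group, against 5, 36 and 24 in the BCAS group, and Cxcr2 0, 4 and 0 against 2, 20 and 15, with BCAS mice 2 and 3 above all sham mice for both. Retnlg counted 8, 4 and 4 against 0, 16 and 4, with overlap. Ngp counted 19, 6 and 25 reads in the sham group, against 4, 0 and 0 in the BCAS group, so that every BCAS mouse was lower. Camp counted 8, 0 and 13 against 0, 0 and 2, and Mpo 8, 9 and 15 against 9, 2 and 2. Of 5 border macrophage markers 3 were DEGs that rose, with a sum of 9.37 to 13.8 CPM and 23.4 to 31.2 CPM. Of 10 lymphocyte markers 8 passed the filter and 7 were DEGs that rose, 5 of which passed it through the BCAS libraries alone, with sums of 1.51 to 2.27 CPM and 10.1 to 11.4 CPM. All 6 neuronal markers passed with lower values in BCAS mice, as 13.2% of all tested genes did, with sums of 8925 to 9477 CPM and 4586 to 6763 CPM.

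Choroid plexus markers were highest in BCAS mouse 1 and sham mouse 2 and lowest in sham mouse 3 and BCAS mouse 2, with 70.8 and 40.4 summed CPM. Their part in the values of the members was not tested.

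The sequences of the members were compared to see whether their reads could be confused. In pairwise local alignments of transcripts the identity was 70.4% to 85.4% over the 15 pairs, highest for Ifitm1 and Ifitm7, at 85.4%. The longest identical run between any pair was 69 bases, between Ifitm2 and Ifitm3, and no member held an exact match of 100 bases or more to another member. Ifitm2 held such matches to Gm45717, Gm11951 and Gm8865, and reads that align to several places were not counted.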

How the data were processed

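Paired-end libraries of total RNA from 6 right hippocampi were made with an NEBNext Ultra kit. After trimming and alignment to mm10 with HISAT2, the authors deposited raw counts per gene from featureCounts, with no normalization. The submitters' processing notes name version 1.6.3, and the file headers name version 2.0.3 with a GENCODE annotation. By the headers, each mate counted as 1 read, strand played no part, and reads on several places or several genes were dropped. The members and the gene lists were chosen with earlier results of these data known. Members are reported whatever their values, as are tested neighbours within 100000 bases and the 3 nearest profiles of each member. Genes were kept by filterByExpr, normalized by TMM and tested with edgeR 4.0.16 (R 4.3.3) across all 18617 genes kept, with Benjamini-Hochberg adjustment. Alternatives were DESeq2 1.42.0, limma-voom (limma 3.58.1), RLE or library totals, other count filters, other fold thresholds, thinned counts, a replicate block and leaving out each mouse. Log2 CPM used a prior count of 2. The tests were checked on simulated counts. Mice are numbered 1 to 3 by the labels, also in the replicate block, although the count columns of the BCAS mice carry the numbers 2 to 4. Positions follow mm10, and sequences come from RefSeq, GRCm38.p6. Some genes of the lists are counted but not reported here by name.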

Additional observations from a re-analysis of the deposited data

How the results depend on the processing

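The fold changes of the 6 members kept their sign under every alternative run. With all mice, 4 members were up-regulated in 6 of 10 alternatives, 3 in 3 and 1, Ifitm3, under glmTreat, which tests against a log2 fold change of 1. One of the 6, the alternative without the fold threshold, reused the main fit and could not call fewer than 4 members. Under glmTreat, Ifitm1 (log2 fold change 1.25, adjusted p = 1), Ifitm2 (1.52, adjusted p = 0.157) and Ifitm6 (2.67, adjusted p = 0.373) no longer passed, since this test asks for a change beyond the threshold. Ifitm1 also missed the threshold with limma-voom (1.13, adjusted p = 0.0609). Ifitm6 missed it with counts thinned to the smallest library (2.36, adjusted p = 0.0632), and with the replicate number as a block (2.94, adjusted p = 0.0757). The cause was not tested. With a mouse left out, 2 to 4 members were up-regulated, with 2 without sham mouse 1, sham mouse 3 or BCAS mouse 3. Log2 fold changes then ran from 0.89 to 1.55 for Ifitm1 and from 2.10 to 5.14 for Ifitm6. Every BCAS mouse was above every sham mouse in 4 members with TMM or library totals and in 3, without Ifitm1, with RLE. Mice paired by the labels' numbers had residual correlations of 0.036, -0.314 and -0.158, and the block on these numbers gave 3 up-regulated members. The count columns number the BCAS mice 2 to 4, and a pairing by those numbers was not tested. Among all genes tested, 1762 were DEGs, compared with 818 under glmTreat and 5819 without the fold threshold. Without the bases shared with Gm45717, a length chosen after seeing the data, the level of Ifitm2 was 4.53 CPM per kilobase in place of 2.68 in sham mice and 13 in place of 7.70 in BCAS mice. Ifitm6 and Ifitm7 had few counts.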
